A study of Mus musculus with 6 samples.

Results

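The cytochrome P450 genes of families 1 to 4 were described in whole lungs of C57BL/6 mice. Lungs with silicosis, a scarring disease caused by crystalline silica, were compared with control lungs. The genes were all rows of the mRNA count table whose symbol is Cyp, then a digit from 1 to 4, then a lower-case letter. There were 49 of them among 17973 rows, in 22 subfamilies. Per the labels, the 3 silicosis libraries (N129, N136 and N138) came from lungs given a single dose of 8 mg silica, put into the trachea with 40 µL of saline. The 3 control libraries (C7, C8 and C9) are labelled as controls, and the series text names sterile normal saline for the comparison samples. Lungs of both groups were frozen after 90 days. The labels give no age or sex, nor whether each library was made from a different mouse, so p-values measure only the spread between these samples.

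P450 enzymes of these families are haem proteins of the endoplasmic reticulum that insert oxygen into their substrates, with electrons passed on by the reductase Por. Families 1 to 3 are best known for oxidising drugs, smoke constituents and other foreign compounds, and several also act on steroids, retinoids or arachidonic acid. Family 4 enzymes mostly hydroxylate fatty acids and eicosanoids at the far end of the chain. In mouse lung the club cells of the small airways are the best known site of P450 expression, above all of Cyp2f2, which makes them sensitive to naphthalene.

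The libraries held between 33698920 and 44000748 mRNA counts. Values per library are normalised counts (CPM, counts scaled to a library total of 1000000), and fold changes are silicosis over control on the log2 scale with their standard error (SE). Lung markers were abundant in both groups. Sftpc, of alveolar type 2 cells, was between 7553 and 11749 CPM in silicosis and between 8666 and 10175 CPM in control. Since whole lungs were measured, fewer cells of a type and less RNA per cell cannot be told apart in any value below.

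Of the 49 P450 genes, 29 passed the filter on low counts and were tested. By edgeR's quasi-likelihood test, with a threshold of 0.05 on the adjusted p, 6 of these rose in silicosis and 6 fell. The share higher was 20.7%, against 15.3% of all 15808 mRNAs tested, and the share lower was 20.7%, against 16.5%. In either direction 41.4% were called, against 31.8% of all mRNAs. Genes changed by at least 2-fold numbered 6 of 29, and the share over all mRNAs was 8.42%. The median log2 fold change was -0.26 over the 29 genes and 0.02 over all mRNAs tested. In 13 of 29 genes, or 44.8%, every silicosis library lay on one side of every control library, against 47.7% of all mRNAs. The 12 called genes were all among them. Cyp4a32, a fatty acid hydroxylase gene and the most expressed of its subfamily, was singled out here after its values were seen. It also had no overlap but was not called (log2 fold change -0.40, SE 0.30). Cyp4a32 shares 47.1% of its sequence windows with other genes. Windows are 50-base stretches of the longest transcript, and shared ones also occur, on either strand, in the transcripts of another gene. The authors' deposited table called 11 of the 12, all but Cyp2a5, and gave the same sign in 12. The share called was 32.1% over all mRNAs there.

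**Figure D1:**
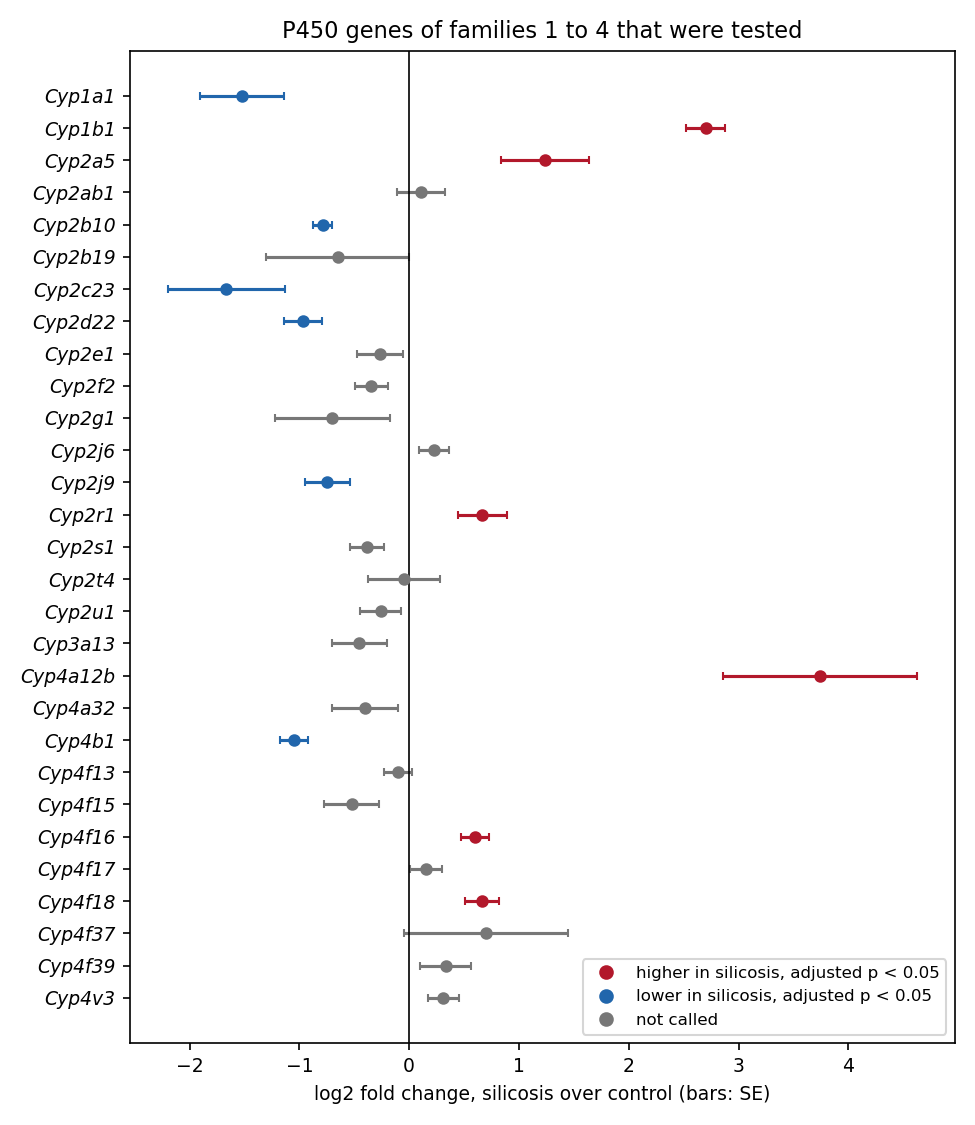
Log2 fold change, silicosis over control (x axis, bars are SE), of the 29 tested P450 genes of families 1 to 4, one per row in order of subfamily. The points run from -1.67 for Cyp2c23 to 3.74 for Cyp4a12b, with 6 genes called higher and 6 called lower.

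The Cyp1 genes moved in opposite directions. Cyp1a1 and Cyp1b1 are the classic target genes of the aryl hydrocarbon receptor, which binds aromatic ligands and acts with its partner Arnt. Cyp1b1 oxidises oestradiol, retinoids and polycyclic hydrocarbons, and is known from stromal cells. Its normalised counts were 96.9, 93.0 and 105 CPM in N129, N136 and N138, against 11.6, 14.1 and 19.7 CPM in C7, C8 and C9. The silicosis libraries lay close together, and the lowest of them was far above the highest control library. Cyp1b1 averaged 98.3 ± 6.02 CPM in silicosis and 15.1 ± 4.13 CPM in control (SD, n = 3 each), a log2 fold change of 2.70 (SE 0.18, edgeR adjusted p = 3.64e-05), or 6.5-fold. Over all alternatives run its log2 fold change lay between 2.54 and 2.93.

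Cyp1a1, which oxidises polycyclic hydrocarbons and is strongly inducible in many tissues, fell. It had 36.2, 12.4 and 13.5 CPM in N129, N136 and N138, against 57.3, 74.5 and 46.3 CPM in C7, C8 and C9. Among the silicosis libraries N129 was the highest and nearest to the controls, and the groups did not overlap. The log2 fold change was -1.52 (SE 0.38, edgeR adjusted p = 0.0150). It was -2.20 without N129, and the call ended without C8, with an adjusted p of 0.0534. The count ratio of Cyp1b1 to Cyp1a1, which needs no scaling between libraries and was chosen after the values were seen, was 2.68, 7.53 and 7.77 in N129, N136 and N138. In C7, C8 and C9 it was 0.203, 0.189 and 0.425. Thus Cyp1b1 had more counts than Cyp1a1 in each silicosis library and fewer in each control library. Per kilobase of exon, Cyp1b1 was at 16.8 CPM in silicosis and 2.59 in control, and Cyp1a1 at 7.42 in silicosis and 21.3 in control.

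The promoters of both genes are shown because the genes share a regulator and moved apart. The sequences are from RefSeq on build GRCm38.p6, an earlier build than the submitters' GRCm39. Each runs from 250 bases before to 50 bases after the annotated start, 5′ to 3′ on the gene's strand. Capitals mark GCGTG, the core to which the aryl hydrocarbon receptor and Arnt bind, or CACGC, the same core on the other strand. Cyp1b1 lies at chr17:79715012-79715311 (minus strand) and Cyp1a1 at chr9:57697363-57697662 (plus strand).
Cyp1b1: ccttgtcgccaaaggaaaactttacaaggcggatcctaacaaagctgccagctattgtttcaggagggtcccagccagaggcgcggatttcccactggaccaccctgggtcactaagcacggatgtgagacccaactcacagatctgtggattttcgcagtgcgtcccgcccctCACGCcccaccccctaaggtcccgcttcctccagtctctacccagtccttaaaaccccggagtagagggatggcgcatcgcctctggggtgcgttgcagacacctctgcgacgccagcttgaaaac
Cyp1a1: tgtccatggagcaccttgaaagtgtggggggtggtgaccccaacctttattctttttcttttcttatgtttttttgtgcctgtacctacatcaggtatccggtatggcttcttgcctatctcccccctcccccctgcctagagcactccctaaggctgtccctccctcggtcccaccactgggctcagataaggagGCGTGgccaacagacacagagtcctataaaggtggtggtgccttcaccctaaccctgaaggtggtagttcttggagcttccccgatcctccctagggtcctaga
Each window held the core 1 time, starting at position -76 in Cyp1b1 and -54 in Cyp1a1, with the first base after the 250 upstream bases counted as 0. Of all 32851 RefSeq windows of 300 bases, 32.4% held the core on either strand, so its presence is common. Sequence farther upstream was not searched, and binding of the receptor was not measured. Promoter windows were found for 23 of the 29 tested P450 genes, and 9 held the core. Besides Cyp1a1 and Cyp1b1 these were Cyp2b10 and Cyp2j9, which fell, Cyp2r1 and Cyp4f16, which rose, and Cyp2ab1, Cyp4f39 and Cyp4v3, which were not called.

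Of 9 tested genes of the aryl hydrocarbon receptor pathway, 1 rose and 1 fell, against 15.3% and 16.5% of all mRNAs, with a median log2 fold change of -0.02. For the receptor gene Ahr the log2 fold change was -0.02 (SE 0.13), for Arnt -0.19 (SE 0.09), and for Ahrr, the repressor of the receptor, 0.22 (SE 0.46). None of the 3 was called. Tiparp, a target gene and feedback inhibitor of the receptor, rose by 0.37 (SE 0.12, edgeR adjusted p = 0.0454). Nqo1 and Aldh3a1, also target genes, had -0.30 and 0.59 and were not called.

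Cyp2 genes formed the largest part of the lung's P450 RNA, and Cyp2f2 stood first. Per kilobase of exon, Cyp2f2 was at 436 CPM in silicosis and 554 CPM in control. It made up 58.4 ± 3.42% of the length-scaled level summed over all 49 genes in silicosis and 54.8 ± 3.04% in control (SD, n = 3 each). These shares overlapped, with 56.6, 56.4 and 62.4% in N129, N136 and N138, against 52.1, 54.3 and 58.1% in C7, C8 and C9. Next came Cyp4b1, Cyp2b10 and Cyp2s1. By the mean over both groups, Cyp2g1, Cyp2c23, Cyp2b19 and Cyp4f37 were the lowest of the tested genes, each at most 0.334 CPM per kilobase in either group.

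**Figure D2:**
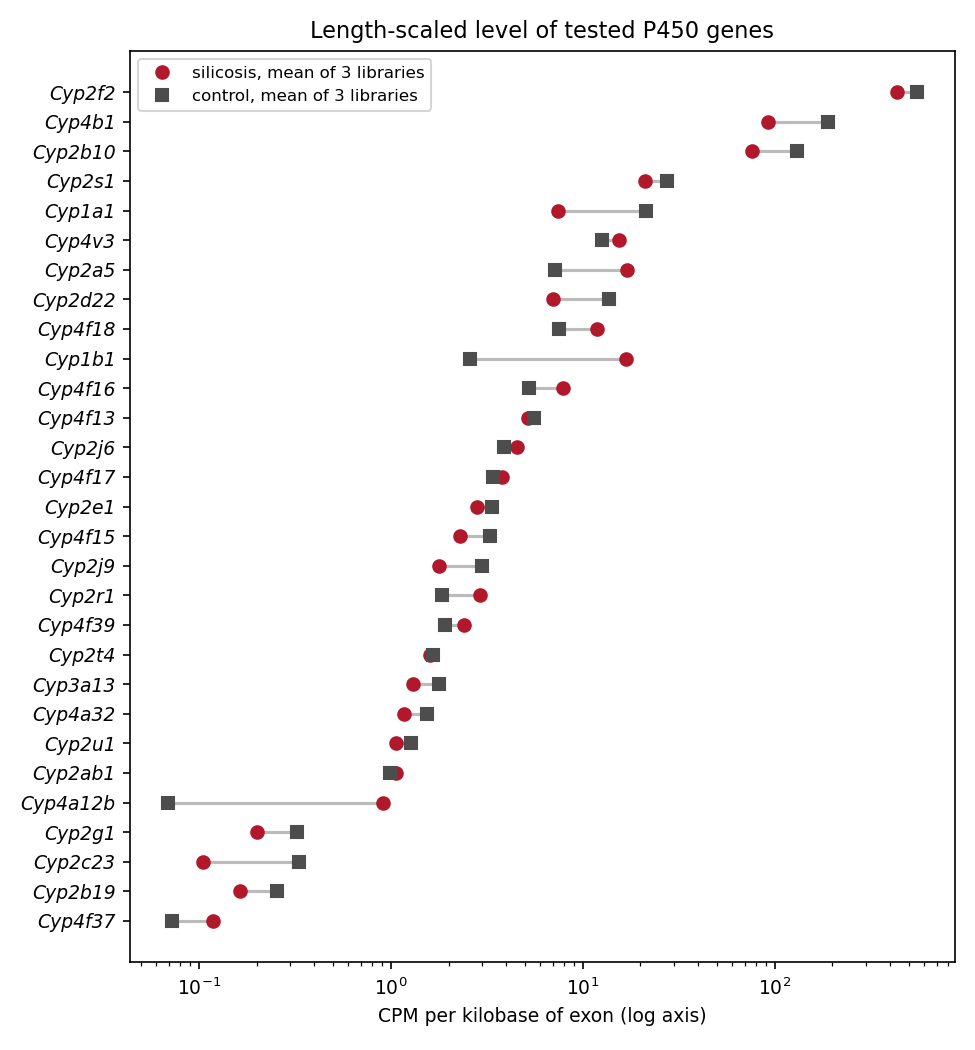
Mean CPM per kilobase of exon (log x axis) of the 29 tested P450 genes in silicosis (circles) and control (squares), n = 3 libraries each, in order of their mean over both groups. Cyp2f2, Cyp4b1 and Cyp2b10 are the highest in both groups, and Cyp1b1 and Cyp4a12b show the longest shifts towards higher levels in silicosis.

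Cyp2f2, the enzyme that activates naphthalene in club cells, was not called. Its normalised counts were 823, 753 and 1076 CPM in N129, N136 and N138, against 982, 1132 and 1251 CPM in C7, C8 and C9. N138 lay within the control range, and the other silicosis libraries lay below it. The log2 fold change was -0.34 (SE 0.15, edgeR adjusted p = 0.111). Without N138 it was -0.51 and passed, with an adjusted p of 0.0124. Cyp2f2 shares 10.2% of its 50-base windows with Gm15883, an antisense gene, and the sources used here give no strand setting.

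Cyp2f2 was compared with the secretory genes of the same airway cells. Scgb1a1, the club cell secretoglobin, had 5046, 3955 and 7622 CPM in N129, N136 and N138, against 9755, 10995 and 16836 CPM in C7, C8 and C9 (log2 fold change -1.18, edgeR adjusted p = 0.00988). The count ratio of Cyp2f2 to Scgb1a1 was 0.163, 0.190 and 0.141 in N129, N136 and N138, against 0.101, 0.103 and 0.0743 in C7, C8 and C9. Every silicosis library was above every control library. The mean log2 ratio was higher by 0.84 in silicosis (two-sided exact permutation test, p = 0.1, the smallest that 3 against 3 can give). Against Scgb3a2, another club cell secretoglobin, the direction was the opposite. That ratio was 4.13, 4.24 and 4.18 in N129, N136 and N138, against 4.92, 4.48 and 4.78 in C7, C8 and C9, a log2 difference of -0.18 (exact permutation p = 0.1, the smallest possible). Scgb3a2 itself was not called (log2 fold change -0.17).

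Cyp2b10, a phenobarbital-inducible enzyme and target gene of the receptor Nr1i3, fell with little spread. It had 163, 154 and 164 CPM in N129, N136 and N138, against 284, 282 and 266 CPM in C7, C8 and C9. The groups were far apart relative to their spread. It fell by 0.79 on the log2 scale (SE 0.08, edgeR adjusted p = 2.50e-04), and that SE was the smallest of the 12 called genes. Cyp2b10 shares 9.63% of its windows with other genes. Its count ratio to Cyp2f2 was not planned and uses the same Cyp2b10 counts, so it is no separate result. The ratio was 0.198, 0.205 and 0.152 in N129, N136 and N138, against 0.289, 0.249 and 0.213 in C7, C8 and C9. The groups did not overlap, but N136 was close to C9. Cyp2b19, the skin form of the same subfamily, was low, at 0.686 CPM in silicosis and 1.07 CPM in control on average, and was not called. Nr1i3 itself was too low to be tested.

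Cyp2a5, the mouse coumarin and nicotine hydroxylase, rose. It had 30.7, 46.4 and 28.4 CPM in N129, N136 and N138, against 8.25, 9.96 and 26.7 CPM in C7, C8 and C9. C9 came close to the lowest silicosis library, and the groups did not overlap. It rose by 1.24 on the log2 scale (SE 0.40, edgeR adjusted p = 0.0435). The call ended with DESeq2, at an adjusted p of 0.0791, and without any of C7, C8, N129 or N136, at 0.0694 to 0.135. Without C9 the value was 1.95 (adjusted p = 0.00159). In the authors' deposited table its log2 fold change was 1.23 with an adjusted p of 0.0857. Cyp2a5 shares 31.0% of its windows with Cyp2a4, its near copy, and 40.7% with any other gene. The rows of Cyp2a4, Cyp2a12 and Cyp2a22 held at most 9 counts in any library.

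Cyp2a5 and Cyp2b10 belong to a gene cluster on mouse chromosome 7 that also holds Cyp2f2. The table listed 11 P450 genes of this cluster, in the order Cyp2s1, Cyp2b10, Cyp2b9, Cyp2a4, Cyp2b19, Cyp2g1, Cyp2a5, Cyp2a22, Cyp2a12, Cyp2f2 and Cyp2t4. Of the 7 that were tested, Cyp2a5 rose, Cyp2b10 fell and 5 were not called, where 15.3% of all mRNAs rose and 16.5% fell. Cyp2s1, an epithelial P450, had 105, 88.7 and 119.5 CPM in N129, N136 and N138, against 113, 128 and 168 CPM in C7, C8 and C9. The groups overlapped in N138 and C7, and the log2 fold change was -0.38 (SE 0.16, edgeR adjusted p = 0.0961, and 0.0489 without N138). For Cyp2g1, an olfactory P450, the log2 fold change was -0.70 (adjusted p = 0.340), or -1.42 without N138 (adjusted p = 0.0651), and for Cyp2t4 -0.04 (SE 0.33). Neither was called.

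**Figure D3:**
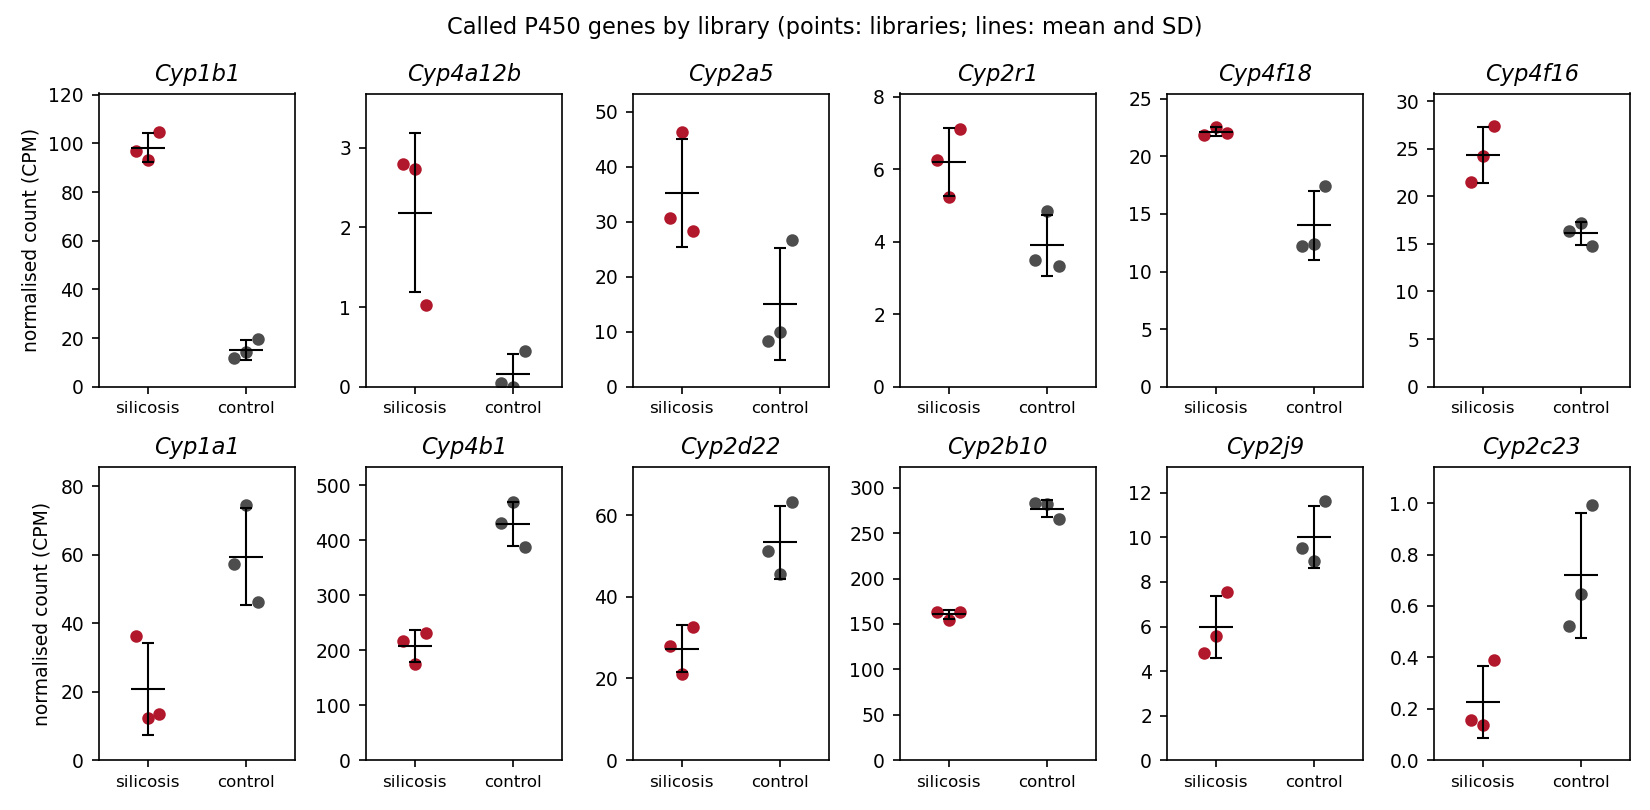
Normalised counts (CPM, linear axes from 0) of the 12 called P450 genes in each library, silicosis on the left and control on the right of each panel, with mean and SD (n = 3 each). The upper row holds the 6 genes that rose and the lower row the 6 that fell. No panel shows overlap between groups.

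Cyp2d22, a mouse Cyp2d gene also expressed outside the liver, fell. It had 28.0, 21.2 and 32.7 CPM in N129, N136 and N138, against 51.3, 45.5 and 63.2 CPM in C7, C8 and C9, with a clear gap between the groups. It fell by 0.97 on the log2 scale (SE 0.17, edgeR adjusted p = 0.00337), and the call held under each alternative tool, filter and left-out library. The other 4 Cyp2d genes, Cyp2d9, Cyp2d10, Cyp2d11 and Cyp2d26, were too low to be tested, with at most 11 counts in any library.

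Of the Cyp2j genes, which form epoxides of arachidonic acid, 2 were tested. Cyp2j9 had 4.82, 5.57 and 7.54 CPM in N129, N136 and N138, against 9.51, 8.95 and 11.6 CPM in C7, C8 and C9. It fell by 0.75 on the log2 scale (SE 0.20, edgeR adjusted p = 0.0216), a call that ended without C7, C9, N129 or N136 (adjusted p from 0.0505 to 0.0755). Cyp2j6 had 14.0, 17.7 and 17.3 CPM in N129, N136 and N138, against 13.3, 14.8 and 13.8 CPM in C7, C8 and C9. The groups overlapped, and it was not called (log2 fold change 0.23, SE 0.13).

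Cyp2c23, an arachidonic acid epoxygenase known from kidney, was the only tested Cyp2c gene and was near the lower limit of detection. It had 6, 6 and 14 counts in N129, N136 and N138, against 21, 27 and 38 counts in C7, C8 and C9. The groups did not overlap in these few counts. It fell by 1.67 on the log2 scale (SE 0.53, edgeR adjusted p = 0.0413). The call ended without a filter on low counts (adjusted p = 0.0549) and without any of C7, C8, C9, N129 or N136 (0.0613 to 0.145). Without N138 the value was -2.27.

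Cyp2r1, which hydroxylates vitamin D, rose. It had 6.26, 5.23 and 7.12 CPM in N129, N136 and N138, against 3.50, 4.86 and 3.34 CPM in C7, C8 and C9. The lowest silicosis library, N136, was just above the highest control library, C8. It rose by 0.67 on the log2 scale (SE 0.22, edgeR adjusted p = 0.0469), and the call ended without C7, C9, N129 or N138 (0.102 to 0.139). Cyp2e1, the ethanol-inducible P450, had 6.42, 6.56 and 5.15 CPM in N129, N136 and N138, against 5.71, 7.23 and 8.87 CPM in C7, C8 and C9. These values overlapped, and it was not called (log2 fold change -0.27, SE 0.21). Cyp2u1, a long-chain fatty acid hydroxylase, and Cyp2ab1 were not called either, with values of -0.26 (SE 0.19) and 0.10 (SE 0.22).

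Of the Cyp3a subfamily, which in liver oxidises many drugs, Cyp3a13 was tested. It had 2.87, 3.35 and 5.31 CPM in N129, N136 and N138, against 5.37, 5.05 and 5.38 CPM in C7, C8 and C9. N138 alone lay within the control range. The log2 fold change was -0.46 (SE 0.25, edgeR adjusted p = 0.199), and it was -0.76 without N138, with an adjusted p of 0.0260. Cyp3a57 had at most 2 counts in any library.

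Among the family 4 genes, Cyp4b1 had the highest level and the most counts. Cyp4b1 activates furans and aromatic amines and hydroxylates fatty acids, and lung is one of its main sites. It had 216, 176 and 231 CPM in N129, N136 and N138, against 432, 469 and 388 CPM in C7, C8 and C9. Every silicosis library was well below every control library. It fell by 1.05 on the log2 scale (SE 0.12, edgeR adjusted p = 4.27e-04). Its share of the length-scaled P450 level was 12.4 ± 0.835% in silicosis and 19.0 ± 2.43% in control (SD, n = 3 each). The count ratio of Cyp4b1 to Cyp2f2, also not planned and drawn from the same Cyp4b1 counts, did not overlap between groups. It was 0.263, 0.233 and 0.214 in N129, N136 and N138, against 0.440, 0.414 and 0.310 in C7, C8 and C9. Cyp4b1 shares 10.3% of its windows with other genes, among them the pseudogene Cyp4b1-ps1.

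The Cyp4f genes, which act on leukotrienes and long-chain fatty acids, included 2 that rose and 0 that fell among 7 tested, with a median log2 fold change of 0.33. Over all mRNAs 15.3% rose and 16.5% fell. Cyp4f18, which inactivates leukotriene B4 in mouse neutrophils, had 21.9, 22.6 and 22.0 CPM in N129, N136 and N138, against 12.2, 12.3 and 17.4 CPM in C7, C8 and C9. The silicosis libraries were nearly equal, and C9 was the control library nearest to them. It rose by 0.66 on the log2 scale (SE 0.15, edgeR adjusted p = 0.0112), and the call ended without C8 (adjusted p = 0.0503). Cyp4f18 overlaps the antisense gene Zfp961, and 5.74% of its windows are shared. Neutrophil markers moved with it: 5 of 8 rose and 0 fell, and their summed level was 354 to 442 CPM in silicosis and 92.0 to 172 CPM in control. Their part in the Cyp4f18 result was not tested.

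Cyp4f16 had 21.5, 24.2 and 27.4 CPM in N129, N136 and N138, against 16.3, 17.2 and 14.8 CPM in C7, C8 and C9. It rose by 0.60 on the log2 scale (SE 0.13, edgeR adjusted p = 0.00783). Cyp4f16 shares 24.6% of its windows with Cyp4f37, so the counts of both are uncertain. Cyp4f13, with 23.0 ± 3.52 CPM in silicosis and 24.7 ± 0.707 CPM in control (SD, n = 3 each), was not called (log2 fold change -0.10, SE 0.13). Cyp4f15, Cyp4f17, Cyp4f37 and Cyp4f39 ranged from -0.52 for Cyp4f15 to 0.70 for Cyp4f37 and were not called. Cyp4f39 is known for hydroxylating the very long fatty acids of skin ceramides.

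Cyp4a enzymes hydroxylate medium and long fatty acids and are target genes of Ppara in liver and kidney. Cyp4a12b had 107, 119 and 37 counts in N129, N136 and N138, against 2, 0 and 17 counts in C7, C8 and C9. N138 was the lowest silicosis library, and most control counts came from C9. It rose by 3.74 on the log2 scale (SE 0.88, edgeR adjusted p = 0.0118), and the value was 6.31 without C9, 3.14 without C8 and 4.90 with limma-voom. Its near copy Cyp4a12a had 16, 4 and 2 counts in N129, N136 and N138 and 0 in each control library. Most of these counts came from N129, and the gene was too low to be tested. It was called higher when no filter was used, and also in the authors' deposited table (log2 fold change 5.35, adjusted p = 0.0224). These copies share 48.8% of the windows of Cyp4a12a and 49.4% of those of Cyp4a12b, so reads may be split between them. By the mean over all libraries, the most expressed Cyp4a gene was Cyp4a32. It had 2.09, 1.19 and 2.14 CPM in N129, N136 and N138, against 2.63, 2.15 and 2.35 CPM in C7, C8 and C9. N138 lay just below C8, and Cyp4a32 was not called (log2 fold change -0.40, SE 0.30). Ppara was not called (log2 fold change 0.17). Cyp4v3, a fatty acid hydroxylase, had 50.2, 72.5 and 54.9 CPM in N129, N136 and N138, against 45.6, 46.1 and 51.5 CPM in C7, C8 and C9. N129 lay within the control range, and Cyp4v3 was not called (log2 fold change 0.31, SE 0.14, edgeR adjusted p = 0.122).

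The 20 genes that were not tested held between 3 and 31 counts over all 6 libraries. Many of them are known mainly from liver, kidney or skin, such as Cyp4a10, Cyp4a14 and Cyp2d9. Of 8 hepatocyte markers 6 were in the table and 3 were tested, and 0 were called in either direction. Their summed level was 5.58 to 6.26 CPM in silicosis and 3.33 to 5.01 CPM in control, without overlap. The most expressed was Apob, an apolipoprotein, with 3.83, 3.99 and 4.40 CPM in N129, N136 and N138, against 2.53, 2.46 and 3.68 CPM in C7, C8 and C9. Without Apob the sums overlapped. Ahsg was at most 1.61 CPM in silicosis and 1.32 CPM in control, and Alb at most 0.573 CPM in silicosis and 0.574 CPM in control.

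Summed over all 49 genes, P450 counts were 1696, 1561 and 1986 CPM in N129, N136 and N138, against 2118, 2335 and 2426 CPM in C7, C8 and C9. The mean in silicosis was 0.762 times that in control, with no overlap in these normalised counts. With raw library totals it was 0.822 times, and the groups then overlapped, with N138 above C7. Raw totals moved the median of all tested mRNAs by 0.10 on the log2 scale. Without Cyp2f2 the sum was 872, 808 and 911 CPM in N129, N136 and N138, against 1136, 1203 and 1175 CPM in C7, C8 and C9. Within the length-scaled sum, the Cyp1b share was 2.28 ± 0.156% in silicosis and 0.255 ± 0.055% in control (SD, n = 3 each). The Cyp4f share was 4.57 ± 0.355% in silicosis and 2.69 ± 0.148% in control, and the Cyp2b share 10.3 ± 1.05% in silicosis and 13.1 ± 1.29% in control. Shares also move with the total, which was lower in silicosis. The Cyp4f counts themselves summed to a mean of 94.3 CPM in silicosis and 79.0 CPM in control, a ratio of 1.19.

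Genes that serve or accompany these enzymes were read from the same test. Of 7 electron donor genes 3 fell and 0 rose, where 16.5% of all mRNAs fell and 15.3% rose. Por, the P450 reductase, had 214, 252 and 278 CPM in N129, N136 and N138, against 321, 351 and 429.6 CPM in C7, C8 and C9 (log2 fold change -0.57, SE 0.14, edgeR adjusted p = 0.0124). Cyb5r3 and Cyb5a, of the cytochrome b5 pathway, fell by 0.67 and 0.29. Haem synthesis genes went both ways, with 2 of 8 higher and 1 lower, against the same shares of all mRNAs. For Alas1, the rate-limiting enzyme, the log2 fold change was -0.05, not called, while Uros rose by 0.42 and Fech, the last enzyme, fell by 0.39.

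Among other enzymes of oxidation, reduction and hydrolysis, 11 of 29 fell and 2 rose, with a median of -0.38. Over all mRNAs 16.5% fell and 15.3% rose. Aldh2, the acetaldehyde dehydrogenase, fell by 0.91 (SE 0.09), and Ephx1, the microsomal epoxide hydrolase that acts on P450 products, fell by 0.88 (SE 0.10). Adh1, an alcohol dehydrogenase, fell by 1.14 (SE 0.14). Ephx2, the soluble epoxide hydrolase that opens arachidonic acid epoxides, also singled out after its values were seen, rose, with 7.85, 5.92 and 5.12 CPM in N129, N136 and N138, against 2.76, 2.44 and 2.90 CPM in C7, C8 and C9 (log2 fold change 1.22, SE 0.22). Thus Ephx1 and Ephx2 moved in opposite directions.

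Of 27 tested conjugation enzymes 5 rose and 6 fell, near the 15.3% higher and 16.5% lower of all mRNAs, with a median of -0.09. The glutathione transferases Gstm1, Gstm2 and Gsta3 fell by 1.23, 0.77 and 0.95. Sult1d1, a sulfotransferase singled out in the same way, rose by 1.47 (SE 0.18). Of 10 tested nuclear receptor genes 2 rose and 0 fell, against those same shares. Esr1, the oestrogen receptor, rose by 0.76 (SE 0.19). Hnf4a, a transcription factor of liver and gut, rose by 2.91 (SE 0.83) from few counts, with 35, 17 and 31 in N129, N136 and N138, against 2, 0 and 9 in C7, C8 and C9.

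P450 genes of family 5 and above, 15 in the table, had 2 of 13 tested higher and 2 lower, near the 15.3% and 16.5% of all mRNAs, with a median of 0.32. Cyp7b1, the oxysterol hydroxylase that clears 25-hydroxycholesterol, had 17.7, 22.6 and 15.8 CPM in N129, N136 and N138, against 4.52, 5.15 and 4.49 CPM in C7, C8 and C9 (log2 fold change 1.99, SE 0.17, edgeR adjusted p = 1.03e-04). Cyp27a1, the sterol hydroxylase of mitochondria, fell by 0.74 (SE 0.18). Cyp21a1, the steroid hydroxylase of the adrenal, had 18, 24 and 11 counts in silicosis and 0 in each control library, at least 5.90-fold higher against a floor of 3 counts per library.

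**Figure D4:**
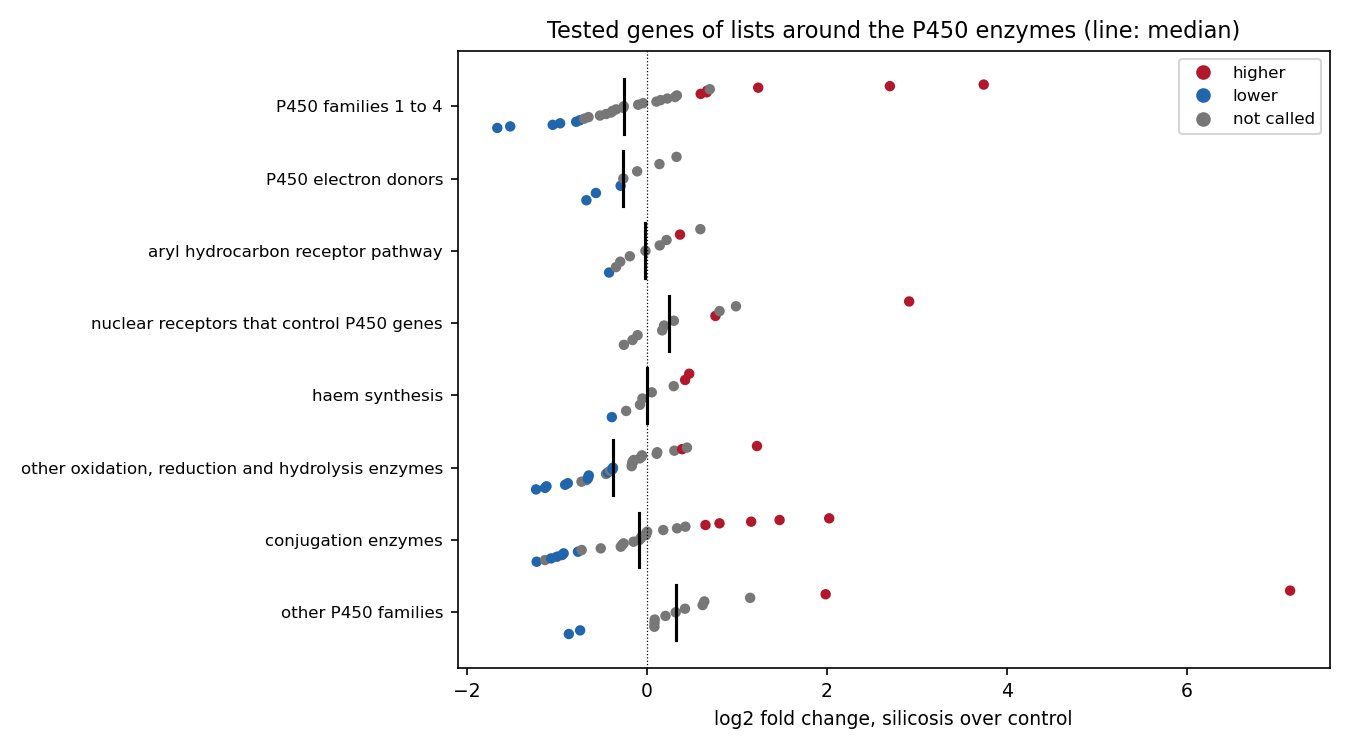
Log2 fold change, silicosis over control, of each tested gene of the P450 families 1 to 4 and of 7 lists around them, with the median of each list as a line. Colours mark genes called higher, called lower and not called. The point farthest to the right is Cyp21a1, whose fitted value rests on control libraries at 0 and is no measured fold.

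Markers of lung cell types differed between the same libraries, and their part in the P450 results was not tested. The counts below stand against 15.3% of all mRNAs called higher and 16.5% called lower. Of 8 club cell markers 1 rose (Bpifa1) and 1 fell (Scgb1a1), and the summed level was 5006 to 8316 CPM in silicosis and 10047 to 17335 CPM in control. That sum was mostly Scgb1a1, and the other 7 markers summed to 694 to 1051 CPM in silicosis and 292 to 499 CPM in control, the opposite direction without overlap. Among these 7, only Bpifa1 and Scgb3a1 had positive log2 fold changes (5.01 and 2.34), and Scgb3a1 was not called. For Scgb3a2, Cldn10, Chad, Iyd and Cckar the values lay between -0.42 and -0.02, and none was called. Endothelial markers fell in 6 of 8 cases, with sums of 2183 to 2366 CPM in silicosis and 3924 to 4315 CPM in control. Of 8 alveolar type 1 markers 6 fell. Of 8 smooth muscle and pericyte markers 4 fell, and of 8 ciliated cell markers 4 fell. Fibroblast markers were split, with 3 of 8 higher, among them the collagens Col1a1 and Col1a2, and 4 lower, among them Tcf21 and Inmt. Of 8 macrophage markers 4 rose and 1 fell, with sums of 1283 to 1927 CPM in silicosis and 672 to 772 CPM in control. Without Spp1, the most expressed of them, the macrophage sums were 710 to 1043 CPM in silicosis and 644 to 746 CPM in control and overlapped. Of 7 tested adipocyte markers 6 rose, and the list's sums were 383 to 503 CPM in silicosis and 169 to 201 CPM in control. Those sums were mostly Lpl. Without it they were 115, 49.5 and 40.7 CPM in N129, N136 and N138, and 11.3 to 24.8 CPM in control, without overlap. Of 8 alveolar type 2 markers 1 fell and 0 rose, and their sums overlapped.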

How the data were processed

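The deposited mRNA table holds raw whole-number counts per gene and library, made by the authors and not normalised. Among the tools in the submitters' processing notes, which state neither roles nor order, are featureCounts 2.0.0, DESeq2 1.36.0, HISAT2, Trimmomatic 0.39 and Bowtie2, and the build is GRCm39. No annotation or strand setting was given in the sources used here. The authors' deposited comparison table gives log2 fold changes, silicosis over control, and adjusted p-values. The lncRNA and circRNA tables were not used here.

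All mRNAs were fitted together with edgeR 4.0.16 in R 4.3.3: filterByExpr, TMM scaling, the two-sided quasi-likelihood F test and Benjamini-Hochberg adjustment over 15808 mRNAs, threshold 0.05. The SE is the log2 fold change divided by the square root of F. The alternatives tried were limma-voom (limma 3.58.1), DESeq2 1.42.0, its size factors within edgeR, all genes unfiltered, each library left out, a 2-fold minimum, and omitting P450 genes with at least 10% of windows shared. Exon lengths and shared windows (50 bases, every 5 bases of the longest transcript, either strand) came from GENCODE M21 on GRCm38, an earlier build; all 49 genes matched. The floor of 3 counts covers counting error only.

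The genes and lists were chosen with earlier results of these data known. Values per library are given by rule for each P450 gene called with a mean of at least 1 CPM and for the most expressed gene of each subfamily, as values or as a fold change. Of each list, the called genes with the 3 lowest p or the most expressed gene are eligible. Some genes that the rule allows are left out of the text, and further list genes were chosen after their values were seen. Some list genes are counted but not reported here by name. Tested on simulated data for this comparison (15808 genes), the edgeR step found 74% of the 100 genes set to change 2-fold. Of the 100 set to change 4-fold it found 97%. Unchanged genes made up 5.52% of its calls. Far fewer genes changed in the simulation than the 31.8% of mRNAs called in the data. The shares found there may therefore not hold for the real fit.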

Additional observations from a re-analysis of the deposited data

How the results depend on the processing

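Of the counts of P450 genes called, 6 higher and 6 lower, DESeq2 size factors and limma-voom gave the same counts, DESeq2 gave 5 and 6, and no filter gave 7 and 5. Each became 3 with a minimum of 2-fold, and without P450 genes with at least 10% of windows shared 3 were higher and 5 lower, Cyp4b1 being the one left out of the genes that fell. Leaving out 1 library gave between 4 and 5 higher and between 4 and 9 lower. The 9 were found without N138, when Cyp2f2, Cyp2s1 and Cyp3a13 joined. Cyp1b1, Cyp2b10, Cyp2d22, Cyp4b1, Cyp4a12b and Cyp4f16 stayed called with each tool, scaling, filter and left-out library. Over the 24 named P450 genes, 213 of 240 recomputed values kept direction and side of the threshold, 21 lost and 3 gained a call. The value of Cyp2t4 changed sign with limma-voom (0.0097), without C7 (0.22) and without N138 (0.10), and with 1 library left out it lay between -0.30 and 0.22. The log2 difference of the Cyp2f2 to Scgb1a1 ratio lay between 0.68 and 0.94 with 1 library left out and was -0.18 against Scgb3a2. Over the surrounding lists, 14 genes higher became 7 and 24 lower became 6 with a minimum of 2-fold, chosen after seeing the data. Leaving out 1 library gave between 9 and 13 higher, lowest without C8 or N129. It gave between 16 and 26 lower, lowest without C8 and highest without N138. The causes were not tested. The marker sums without their most expressed gene were added after seeing the data. No paired analysis was possible because the groups share no replicate numbers. In the authors' deposited table, 11 of the 12 called genes also had an adjusted p under 0.05, Cyp2a5 being the exception. Of the 17 tested genes not called here, 0 did. Of the 20 genes not tested here, 1 did, Cyp4a12a. Over all mRNAs of that table the share was 32.1%. Low counts limit the precision of Cyp2c23 and Cyp4a12b.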
